A study of Mus musculus with 6 samples.

Results

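Small nucleolar RNAs (snoRNAs) are short, stable RNAs of the nucleolus, and their genes were read here as a group in mouse splenic B-cells. The 58 genes described are the names formed of Snord or Snora and a number that had at least 10 counts in at least 2 of the 6 libraries, out of 121 such names and of 46963 genes in the count table. Of these, 39 are box C/D genes (Snord, of 82 names) and 19 are box H/ACA genes (Snora, of 39 names). The members were thus chosen by their counts in all 6 libraries, and no count of members is support for their being expressed. The minimum is also the filter of the fits used here, so that all 58 were fitted. Of these, 4 members passed it through resting libraries alone and 1 through libraries with lipopolysaccharide (LPS) alone. For such members the choice favours higher counts in the state that passed, so that a change in that direction is not independent of it. The members lay next to the minimum at Snora73a, Snord34 and Snord42a, with 2 libraries at 10 counts or more, and the names next below it, with 1 such library, were Snora34, Snord37, Snord42b, Snord59a, Snord7 and Snord98.

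CD43-depleted spleen cells came from wt mice, from Eμ-deficient mice, which lack the intronic IgH enhancer Eμ with its matrix attachment regions, and from 3′RR-deficient mice, which lack the IgH 3′ regulatory region. The methods of the study give male and female mice of 8 to 12 weeks in a 129 background. Each genotype gave 1 resting library and 1 library of cells kept for 2 days with 5 μg/ml LPS. The methods describe 2 pools of 2 samples per genotype, and a figure legend gives another number of mice. What each library pools is thus not settled. The dose is that of the treatment labels and the methods, and another protocol text gives it in mg/ml. By the labels the resting cells had 2 days of culture without LPS, and by the methods they were taken before stimulation. The deleted enhancers are not among the counted genes, and the genotypes were not checked here through other genes of the IgH locus. With 1 library per genotype and state, the p-values below measure departure from equal effects across genotypes and not the spread between mice.

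Gene counts were between 9111974 and 21998587 per library, and the 39 C/D and 19 H/ACA genes took between 0.0252% and 0.107% of them per class. The 4 B-cell markers Cd79a, Cd79b, Ms4a1 and Pax5 summed to between 1239 and 2006 CPM (counts made comparable between libraries by TMM scaling) and none was called with LPS. Markers of several other cells were highest at rest. The 5 erythroid markers summed to 3356, 20100 and 3859 CPM in resting wt, Eμ-deficient and 3′RR-deficient libraries and to 53.0, 671 and 133 CPM with LPS. All 5, as well as 4 of 4 T-cell and 4 of 4 myeloid markers and 1 of 2 NK-cell markers, were called lower, whereas 1 of 3 plasma-cell markers was called higher. In the same order, the plasma-cell markers summed to 131, 1777 and 182 CPM at rest and to 173, 927 and 303 CPM with LPS. Their sum was thus highest in Eμ-deficient cells in both states and fell there with LPS. Libraries also differed by base composition: across 14350 genes the Spearman rho between GC content and the log2 ratio to the wt library was 0.563 for the LPS library of 3′RR-deficient cells and -0.380 for the resting library of Eμ-deficient cells, and -0.264 for LPS to resting in wt cells.

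snoRNAs guide the modification of other RNAs by base pairing. C/D snoRNAs are bound by fibrillarin, Nop56, Nop58 and Snu13 and mostly guide ribose methylation of ribosomal RNA (rRNA), whereas H/ACA snoRNAs are bound by dyskerin, Nhp2, Nop10 and Gar1 and mostly guide pseudouridylation. A few, among them the U3, U8, U13, U14, U17 and U22 RNAs, act in the cleavage or acetylation of the rRNA precursor. In mammals most snoRNAs are cut out of introns of host genes, many of which encode ribosomal proteins or translation factors, and resting B-cells given LPS grow and divide and raise ribosome production.

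The genes on which the results turned are shown as sequences of the GENCODE M21 transcripts on GRCm38 (mm10), from the 5′ to the 3′ end. Capitals mark the C box (ATGATGA or GTGATGA within the first 25 nt) and the D box (CTGA within the last 15 nt) of C/D genes, and the H box (ANANNA in the central one of 3 equal parts) and the ACA box (ACA with 2 to 4 nt after it) of H/ACA genes, each searched on the transcribed strand. The first 2, C/D genes, and the next, an H/ACA gene, were lower with LPS, the following 2 are H/ACA genes that were higher, and the last is the most abundant member.
Snord17 (chr2:144265979-144266216, minus strand, intron of Snx5): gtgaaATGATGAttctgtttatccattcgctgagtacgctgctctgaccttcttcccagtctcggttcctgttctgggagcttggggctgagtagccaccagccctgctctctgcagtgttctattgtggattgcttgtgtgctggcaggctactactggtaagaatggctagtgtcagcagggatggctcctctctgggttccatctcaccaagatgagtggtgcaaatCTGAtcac
Snord15a (chr7:99482785-99482932, minus strand, intron of Rps3): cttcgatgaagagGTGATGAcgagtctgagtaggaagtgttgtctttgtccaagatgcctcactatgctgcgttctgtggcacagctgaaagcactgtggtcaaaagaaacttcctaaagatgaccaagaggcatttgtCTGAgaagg
Snora28 (chr12:111540941-111541067, plus strand, within Eif5 and overlapping one of its annotated exons): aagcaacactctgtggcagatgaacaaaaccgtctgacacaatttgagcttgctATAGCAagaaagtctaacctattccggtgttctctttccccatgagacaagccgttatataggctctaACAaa
Snora41 (chr1:63179004-63179135, plus strand, intron of Eef1b2): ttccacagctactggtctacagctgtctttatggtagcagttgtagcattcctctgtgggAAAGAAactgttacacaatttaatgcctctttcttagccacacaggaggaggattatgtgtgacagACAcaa
Snora17 (chr2:26639190-26639321, minus strand, in no annotated gene of that strand): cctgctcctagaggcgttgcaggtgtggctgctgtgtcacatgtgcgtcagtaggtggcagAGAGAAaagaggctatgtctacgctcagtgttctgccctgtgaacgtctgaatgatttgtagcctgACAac
Snora73b (chr4:132352322-132352526, minus strand, intron of Rcc1): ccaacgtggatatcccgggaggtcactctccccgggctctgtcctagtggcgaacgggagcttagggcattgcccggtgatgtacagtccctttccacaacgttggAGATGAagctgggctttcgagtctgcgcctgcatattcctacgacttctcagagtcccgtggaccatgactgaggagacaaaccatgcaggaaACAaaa

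The 2 classes were distinct in these letters. Both a C and a D box were found in 22 of the 39 C/D members (56.4%), with the C box in 59.0% and the D box in 89.7%, against 0.522%, 7.28% and 0.0464% for the C box, the D box and both among 8625 other annotated genes of 60 to 350 nt. An ACA box was found in all 19 H/ACA members and an H box in 94.7%, against 5.55% and 64.9% of the same other genes, so that the H box as spelled here is a weak mark. The 2 classes also differed in size: C/D members ran from 65 to 238 nt (median 81) and H/ACA members from 121 to 205 nt (median 132). The paired reads of 150 nt were thus longer than the median gene of either class.

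The place of a gene in its host went with whether it was counted. Of 51 names inside introns, 41 were members (80.4%), whereas of 64 names that overlapped an annotated exon of the same strand 12 were members (18.8%) and 44 had no count in any library. The difference was seen in C/D genes (30 of 39 in introns against 6 of 40 at exons) and in H/ACA genes (11 of 12 against 6 of 24). Counting with the options stated by the authors leaves out fragments that overlap 2 genes, so that a snoRNA inside an annotated exon can be at 0 without being absent. Gas5, a long noncoding RNA host of many C/D snoRNAs, was itself at a mean of 296 CPM, while its snoRNAs Snord47, Snord78 and Snord80 were listed at 0. The same held for processing snoRNAs of the U14 family (Snord14a in Rps13 and Snord14c, Snord14d and Snord14e in Hspa8) and for Snord22 in Snhg1, which were at 0 in 6 of 6 libraries and overlap exons. The snoRNAs named Snord64, Snord107, Snord116l1 and Snord116l2, of families restricted to brain, were at 0 as well, and 2 of these, Snord116l1 and Snord116l2, lie in introns.

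Levels were dominated by 1 gene in each class. Per kilobase of transcript, Snora73b, the U17 RNA that acts in rRNA cleavage, had the highest mean level (2819 CPM per kb), followed by Snord17 (1755 CPM per kb), a C/D guide RNA of large-subunit rRNA. Next came Snord104, a C/D guide RNA, at 542 CPM per kb, Snora78 at 300.0 CPM per kb, and Snord118, the U8 RNA needed for maturation of large-subunit rRNA, at 184 CPM per kb. Snord13, the U13 RNA that guides acetylation of small-subunit rRNA, was at 109 CPM per kb, and the lowest member was Snora73a with 2.25 CPM per kb. Of the 58 members, 43 had a mean under 100 counts per library, and 1 (Snord34, in resting Eμ-deficient cells) had a library at 0. Snora73a and Snora73b are copies of 205 nt that differ at 7 positions, and because multi-mapping fragments were counted once at 1 place, the split of reads between them is uncertain.

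Snord17 had 611, 755 and 610 CPM in the resting wt, Eμ-deficient and 3′RR-deficient libraries and 103, 190 and 236 CPM with LPS. It took 78.0%, 82.0% and 76.8% of C/D counts at rest and 38.9%, 56.7% and 50.7% with LPS. The resting libraries all lay above the LPS libraries. The summed level of the 39 C/D genes accordingly went from 783, 921 and 794 CPM to 266, 334.4 and 466 CPM. Without Snord17 the sums were 172, 166 and 184 CPM at rest and 162, 145 and 230 CPM with LPS, which overlap. The summed level of the H/ACA genes was 565, 620 and 987 CPM at rest and 578, 458 and 1100 CPM with LPS, and without Snora73b 92.4, 138 and 137 CPM at rest and 139, 147 and 189 CPM with LPS. The bulk libraries do not tell less RNA per cell from fewer cells that carry it.

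**Figure D1:**
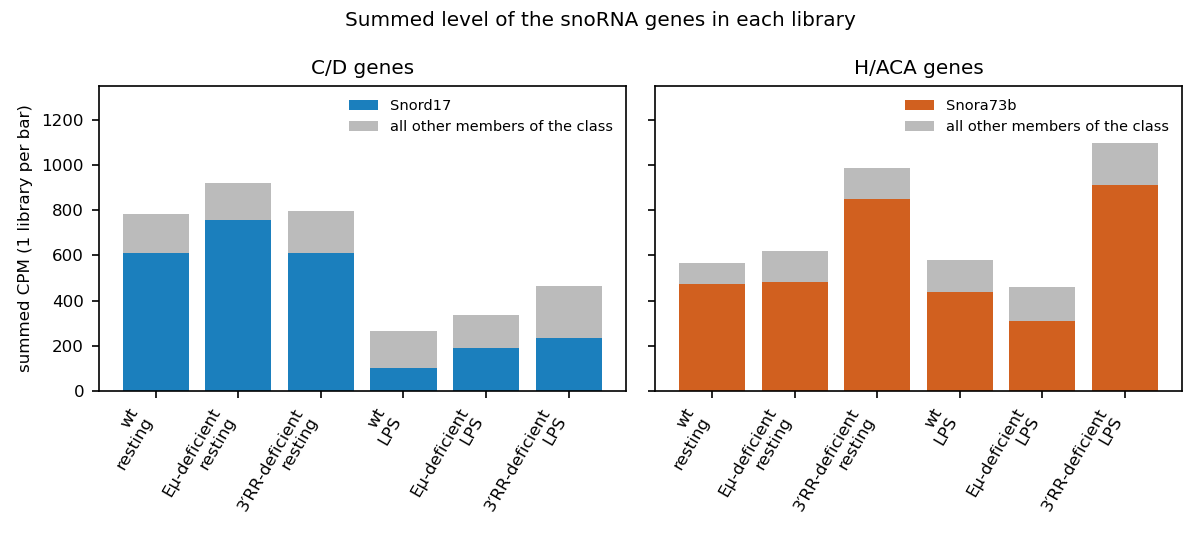
Stacked bars of summed CPM (y axis) of the 39 C/D genes (left) and the 19 H/ACA genes (right) in each of the 6 libraries (x axis, 1 library per bar), with the most abundant gene in colour and the rest of its class in grey. Snord17 is the larger part of the C/D bar at rest and falls to 103 to 236 CPM with LPS, whereas the H/ACA bars are highest in both 3′RR-deficient libraries.

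The comparison of LPS-stimulated with resting cells asks how snoRNA genes change as B-cells are activated. With edgeR, 11 of 58 members were called at an adjusted p under 0.05, of which 6 were higher (10.3% of members, against 19.7% of the 14600 genes tested) and 5 lower (8.62%, against 21.1%). Among C/D genes 2 were higher and 3 lower of 39, and among H/ACA genes 4 were higher and 2 lower of 19. The median log2 fold change was -0.09 over C/D genes (range -1.98 to 1.401) and 0.56 over H/ACA genes (range -1.93 to 3.00), with -0.07 over all genes tested. Among members with a mean of at least 100 counts the medians were -0.03 for 7 C/D genes and 0.10 for 8 H/ACA genes, and under 100 counts -0.09 for 32 C/D genes and 0.70 for 11 H/ACA genes. Of the members under 100 counts, 2 of 32 and 2 of 11 were called, where 35.0% of all genes under 100 counts were called, and of the others 3 of 7 and 4 of 8, where 44.4% were called. The difference between the classes was not tested, and the medians moved with the libraries: that of C/D genes was 0.18 without the Eμ-deficient and 0.07 without the 3′RR-deficient libraries, and that of H/ACA genes was 0.26 without the wt libraries and 0.32 with spike-in counts as library sizes.

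Libraries of the 2 states did not overlap in 9 members that were higher with LPS (3 C/D and 6 H/ACA), where 25% of all genes did so, and in 10 that were lower (8 C/D and 2 H/ACA), where 27.3% did. The median SE was 0.46 on the log2 scale for C/D and 0.33 for H/ACA genes, against 0.30 over all genes tested.

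**Figure D2:**
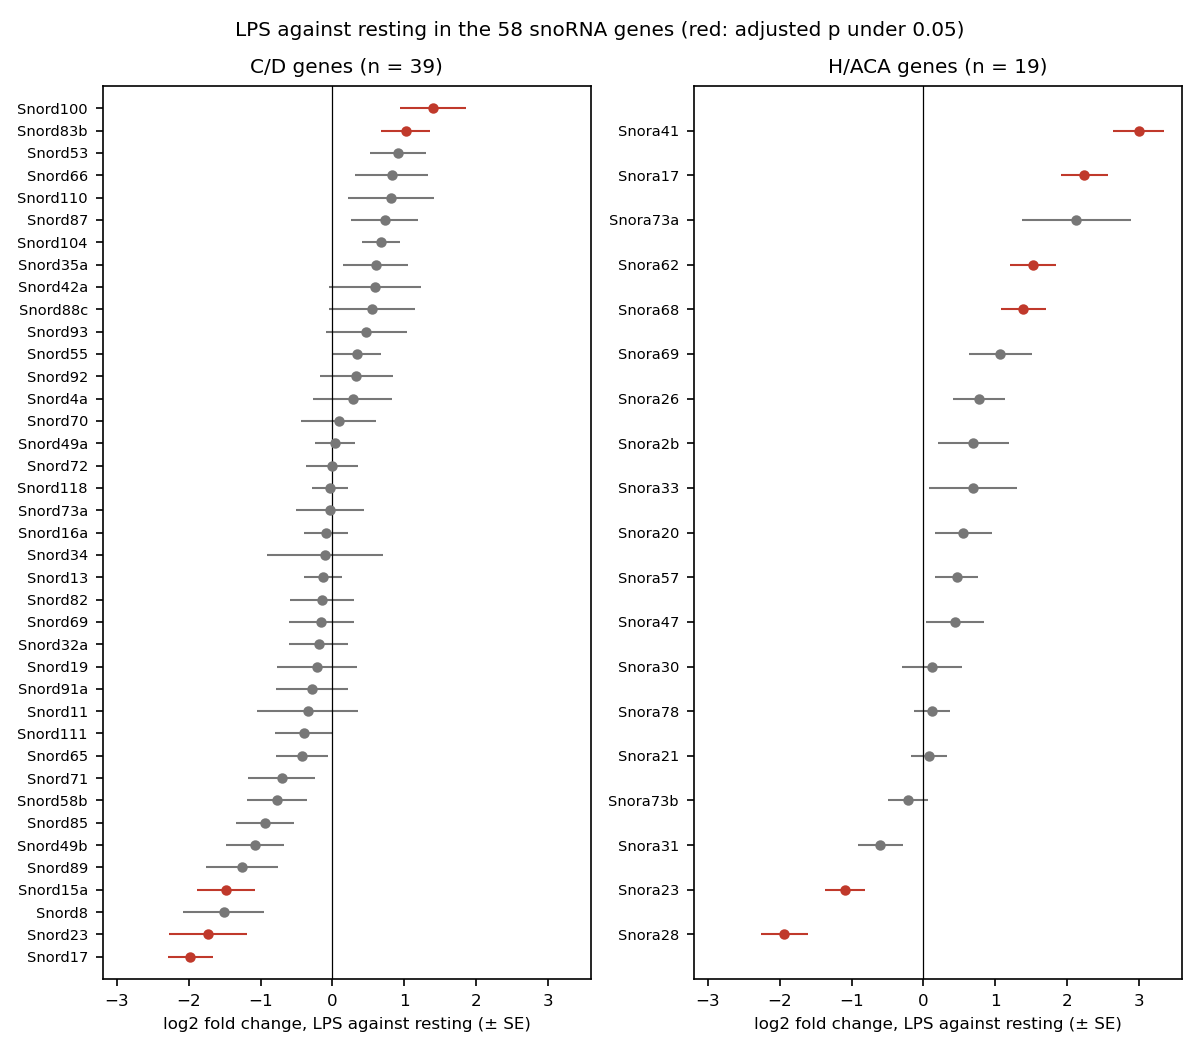
log2 fold change of LPS against resting (x axis, points with SE bars from edgeR over 6 libraries) for each of the 39 C/D genes (left) and 19 H/ACA genes (right), ordered by value, with genes of an adjusted p under 0.05 in red. The C/D genes spread on both sides of 0 from -1.98 to 1.401, and 15 of the 19 H/ACA genes lie above 0.

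The 5 genes that fell with LPS included the most abundant C/D gene. Snord17, with the values above, had a log2 fold change of -1.98 (SE 0.31, edgeR adjusted p = 0.00137), 3.94-fold lower. Snora28, an H/ACA guide RNA within Eif5, had 10.2, 15.001 and 10.5 CPM in resting wt, Eμ-deficient and 3′RR-deficient libraries and 4.16, 3.47 and 1.80 CPM with LPS. All 3 LPS libraries lay below the resting ones, with a log2 fold change of -1.93 (SE 0.33, edgeR adjusted p = 0.00203).

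Snord15a, a C/D guide RNA in an intron of Rps3, had 45.4, 23.9 and 39.1 CPM at rest and 6.27, 13.5 and 21.8 CPM with LPS. Its log2 fold change was -1.48 (SE 0.40, edgeR adjusted p = 0.0172), and the wt pair fell most, with a log2 ratio of -2.86 against -0.82 and -0.84 in the Eμ-deficient and 3′RR-deficient pairs. Snora23, in an intron of the nuclear import receptor gene Ipo7, had 16.6, 19.5 and 20.98 CPM at rest and 5.17, 11.2 and 12.1 CPM with LPS, with a log2 fold change of -1.09 (SE 0.28, edgeR adjusted p = 0.0128). Snord23, in an intron of Gltscr2 (Nop53), rested on few reads, with 37, 11 and 31 counts at rest and 8, 4 and 5 counts with LPS. Snord23 thus passed the count minimum through resting libraries alone, so that its fall was favoured by the choice of members. Its log2 fold change was -1.73 (SE 0.54, edgeR adjusted p = 0.0296), and the call was lost without the wt or the Eμ-deficient libraries and with DESeq2.

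Other genes among the falling values missed the threshold. Snord8, in an intron of Chd8, had a log2 fold change of -1.51 (edgeR adjusted p = 0.0566), and Snord89 of -1.26 (edgeR adjusted p = 0.0712), with no overlap between the states in either. Transcripts of cells other than B-cells fell over the same libraries, as given above. The resting Eμ-deficient library, with 20100 CPM of erythroid markers, had the highest values of Snord17 and Snora28. It also had the lowest resting values of Snord15a and Snord23, and Snora23 was not highest there. The erythroid markers were lower with LPS in the pair of each genotype, and their part in these falls was not tested.

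Of the 6 genes that rose, 4 are H/ACA guide RNAs. Snora41, in an intron of the elongation factor gene Eef1b2, had 1.71, 1.29 and 0.876 CPM in resting wt, Eμ-deficient and 3′RR-deficient libraries and 12.1, 7.41 and 11.2 CPM with LPS. Its log2 fold change of 3.00 (SE 0.35, edgeR adjusted p = 0.00034), 7.995-fold, was the highest of all 58 members. Snora17 had 2.42, 2.96 and 3.21 CPM at rest and 15.2, 8.63 and 17.996 CPM with LPS, with a log2 fold change of 2.24 (SE 0.32, edgeR adjusted p = 0.00086).

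Snora62, in an intron of the ribosomal protein gene Rpsa, had 1.597, 2.20 and 1.80 CPM at rest and 4.93, 5.72 and 5.40 CPM with LPS. The 3 genotypes gave close ratios, and the log2 fold change was 1.53 (SE 0.33, edgeR adjusted p = 0.00578). Snora68 had 12.3, 8.94 and 11.9 CPM at rest and 21.6, 19.4 and 56.5 CPM with LPS, with a log2 fold change of 1.39 (SE 0.31, edgeR adjusted p = 0.00742). The 3′RR-deficient LPS library was the highest and its log2 ratio of 2.24 compares with 0.81 in wt and 1.12 in Eμ-deficient cells. Without both 3′RR-deficient libraries Snora68 was still called.

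The 2 C/D genes that rose both lie within ribosomal protein genes. Snord100, which overlaps an exon of Rps12, had 2.26, 1.67 and 1.41 CPM at rest and 3.78, 2.81 and 9.11 CPM with LPS, with a log2 fold change of 1.401 (SE 0.46, edgeR adjusted p = 0.0373). Snord83b, in an intron of Rpl3, had 5.78, 7.88 and 7.06 CPM at rest and 14.2, 8.16 and 22.05 CPM with LPS, with a log2 fold change of 1.02 (SE 0.34, edgeR adjusted p = 0.0410). Its Eμ-deficient pair moved by 0.05. Both calls depended on the 3′RR-deficient pair, since without the 3′RR-deficient pair the log2 fold changes were 0.75 and 0.69 and neither gene was called. Both calls were also lost with total counts or spike-in counts as library sizes. Snord104, not called with a log2 fold change of 0.68 (edgeR adjusted p = 0.0703), was likewise highest in that library, at 86.0 CPM against 22.9 to 34.0 CPM in the other 5.

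**Figure D3:**
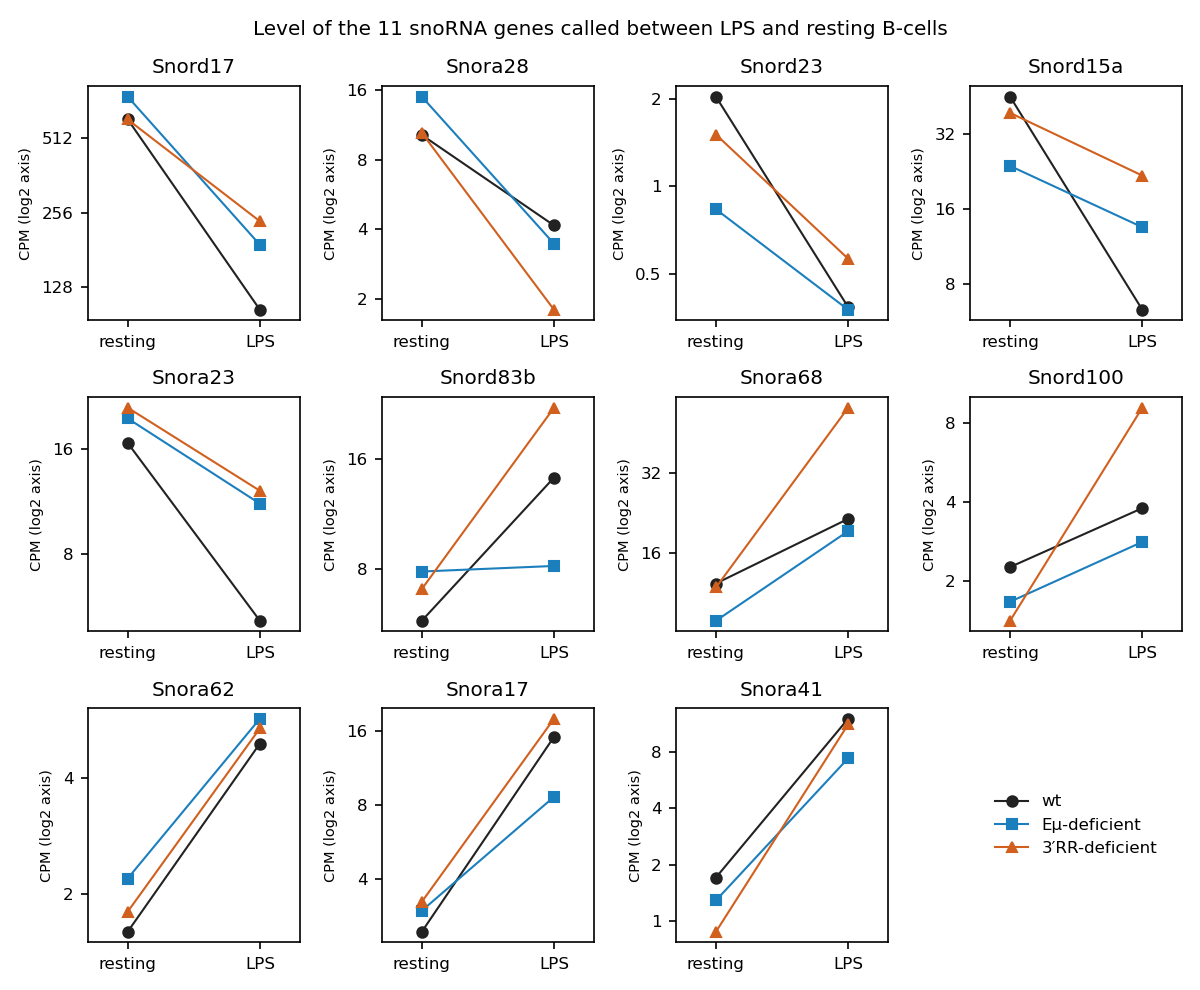
CPM on a log2 axis (y axis) in resting and LPS libraries (x axis) of the 11 snoRNA genes called by edgeR, 1 panel per gene, with 1 line per genotype and 1 library per point. Snord17, Snora28, Snord23, Snord15a and Snora23 fall in each genotype, and Snord83b is close to level in Eμ-deficient cells (7.88 and 8.16 CPM).

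The snoRNAs of rRNA processing and acetylation were not called. Snora73b had 473, 482 and 851 CPM at rest and 440, 311 and 911 CPM with LPS, so that the states overlapped, with a log2 fold change of -0.21 (SE 0.28, edgeR adjusted p = 0.564). Snord118 had 18.7, 34.5 and 22.5 CPM at rest and 26.8, 28.4 and 17.8 CPM with LPS (log2 fold change -0.03, SE 0.26). Snord13 had 13.1, 12.1 and 10.2 CPM at rest and 9.24, 11.2 and 12.1 CPM with LPS (log2 fold change -0.13, SE 0.27). The spread between genotypes was wider than the change with LPS in all 3. Snora73a, on 1 to 19 counts per library, had a log2 fold change of 2.13 (SE 0.76, edgeR adjusted p = 0.0507). It passed the count minimum through LPS libraries alone, so that a rise was favoured by the choice of members.

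Many genes of the proteins that bind and assemble snoRNAs rose with LPS. Of 19 such genes 13 were called higher (19.7% of all genes tested were) and none lower (21.1% were), with a median log2 fold change of 1.32, and they were not tested against the snoRNA genes. All 4 C/D core genes rose: Fbl, the methyltransferase fibrillarin, by 1.32 (SE 0.28, edgeR adjusted p = 0.00517), Nop56 by 1.15, Nop58 by 1.56 and Nhp2l1, the Snu13 gene, by 1.46 on the log2 scale. All 4 H/ACA core genes rose as well: Dkc1, the pseudouridine synthase dyskerin, by 1.85 (SE 0.24, edgeR adjusted p = 0.000488), Nhp2 by 1.91, Nop10 by 1.31 and Gar1 by 1.80. Of 11 assembly and trafficking factors 5 rose, among them the ATPases Ruvbl1 (1.85) and Ruvbl2 (2.09) and the nucleolar chaperone Nolc1 (1.53), while Nufip1 was at 0.07 (edgeR adjusted p = 0.830). None of the 19 was called for either genotype.

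Other short RNAs were counted beside them. Of 5 small Cajal body RNAs tested, Scarna2 was called lower (log2 fold change -1.45, SE 0.27, edgeR adjusted p = 0.00299) and none higher. Among 76 other structured and micro RNAs 10 were called higher and 20 lower (39.5% called), with a median log2 fold change of -0.69. Among 491 other genes of at most 350 nt 70 were called higher and 84 lower (31.4% called), with a median of -0.24. Of all genes tested, 40.8% were called.

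Since most snoRNAs lie inside other genes, each member was set beside its host. The annotation placed 53 members within a gene on the same strand, and 52 members in 42 hosts had a fitted host value. The median log2 fold change with LPS was 0.06 for these members and 0.57 for their hosts, and 38 of 52 members lay below their host. Of the 42 hosts, 14 were called higher (33.3%, against 19.7% of all genes tested) and 2 lower (4.76%, against 21.1%). Member and host had the same sign in 32 of 52 pairs, with a Pearson r of 0.52 and a Spearman rho of 0.50 across genes, which share libraries and in part hosts and are not independent replicates. Fragments of the unspliced host that cover a snoRNA are counted to the snoRNA, and the share of such fragments was not measured.

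Some members had values far from those of their hosts. Rcc1, the exchange factor of the GTPase Ran, had 12.4, 12.7 and 11.05 CPM at rest and 63.7, 50.3 and 81.0 CPM with LPS, a log2 fold change of 2.41 (SE 0.26, edgeR adjusted p = 0.000228), while Snora73b in its intron was at -0.21 and not called. Hosts were taken by length, and the copy Snora73a, also within Rcc1, overlaps an exon of Snhg3. Rcc1 is thus not shown to be the gene from which Snora73b is cut. Ipo7 rose by 1.11 (edgeR adjusted p = 0.00701) where Snora23 fell by 1.09, and Eef1b2 rose by 1.03 (edgeR adjusted p = 0.0109) where Snora41 rose by 3.00. Rps3 was at 0.56 (edgeR adjusted p = 0.124) where Snord15a fell by 1.48. For Snord17 and Snora28 the hosts Snx5 and Eif5 had log2 fold changes of -0.53 and -0.65, neither of them called. The difference between member and host was not tested.

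Among the 8 hosts with more than 1 member, 2410006H16Rik held Snord49a (log2 fold change 0.04), Snord49b (-1.08) and Snord65 (-0.43) with a host value of -0.12. Rpl13a held Snord32a (-0.19), Snord34 (-0.10) and Snord35a (0.60) with a host value of 0.45. Nop58, which encodes a C/D core protein and rose by 1.56, held Snord11 (-0.34) and Snord70 (0.09). Gnl3, the gene of nucleostemin, held Snord19 (-0.22) and Snord69 (-0.15) with a host value of 0.02. None of these 10 members was called. Rpl23a, Rps12 and Wdr43 held 2 members each, all with values above 0 (0.28 to 1.401), and Rcc1 held both Snora73 copies. Of the 17 members in ribosomal protein genes by name, 3 were higher and 1 lower with LPS, and of 34 in genes of other names, Rpsa among them, 2 were higher and 4 lower. These shares lay below those of all genes tested (19.7% higher and 21.1% lower), and the 2 groups of hosts were not tested against each other.

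**Figure D4:**
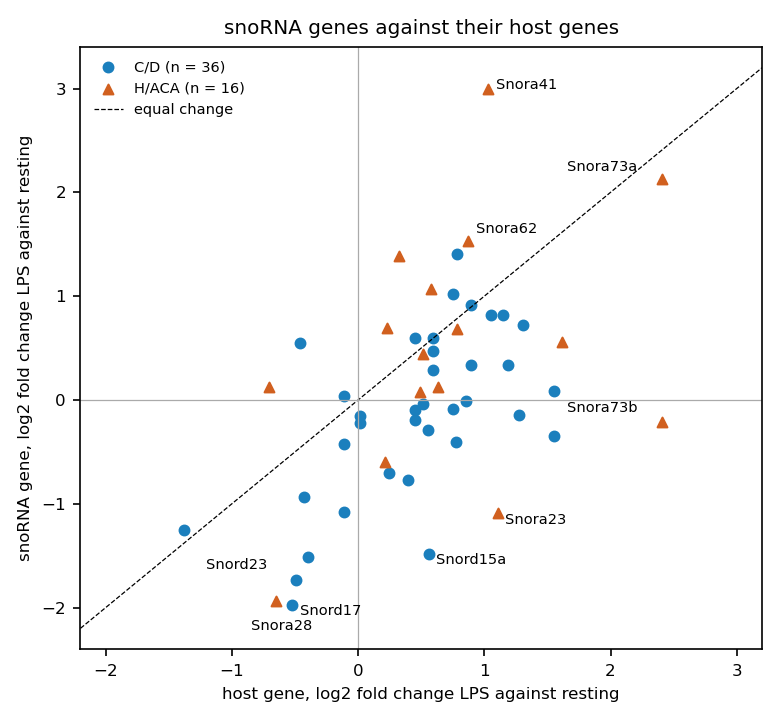
log2 fold change of LPS against resting for 52 snoRNA genes (y axis) against that of the host gene (x axis), with C/D genes as circles, H/ACA genes as triangles and a dashed line of equal change. Most points lie to the right of 0 and 38 lie below the dashed line, with Snora41 far above it and Snora73b, Snora23 and Snord15a far below.

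The comparison between genotypes asks whether loss of either IgH enhancer goes with other snoRNA levels. No member was called in Eμ-deficient against wt cells (0.911% of all genes were called higher and 0.253% lower) or in 3′RR-deficient against wt cells (0.171% higher and 0.507% lower) by edgeR, with 2 and 4 members at an unadjusted p under 0.05. DESeq2 also called none. The lowest adjusted p were 0.203 for Snora78 and Snord32a in Eμ-deficient cells and 0.440 for Snord104 in 3′RR-deficient cells. A count of 0 among 58 genes is near these backgrounds. Both comparisons share the wt libraries. In each state the Eμ-deficient library had the highest sums of erythroid and plasma-cell markers, and the part of such cells in the comparison with wt was not tested.

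Within a state each comparison is of 1 library with 1, and the intervals given here are 95% exact intervals of the counts that cover counting error and not the spread between mice. Median log2 ratios of Eμ-deficient to wt were 0.04 for C/D and 0.35 for H/ACA genes at rest and -0.22 and -0.15 with LPS. Those of 3′RR-deficient to wt were 0.23 and 0.33 at rest and 0.16 and 0.25 with LPS, and the medians over all genes tested were between 0.02 and 0.11. The medians at rest depend on the scaling, since with spike-in totals as library sizes the Eμ-deficient medians at rest were -0.77 and -0.46, where the median of all genes shifted by -0.81. They also moved with length and GC content. After removal of the trend on length over all genes, the C/D and H/ACA medians at rest were -0.25 and 0.04 in Eμ-deficient and 0.04 and 0.17 in 3′RR-deficient cells, and after removal of that on GC content -0.15 and 0.41, and 0.11 and 0.25. Members spread most in the 3′RR-deficient LPS library, from -2.82 to 1.85, and their ratios there had a Spearman rho of 0.34 with GC content over the 58 genes.

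Members with a counting interval on 1 side of 0 in both states were counted beside the share of all genes. In Eμ-deficient cells 2 members were higher in both states (3.45%, against 8.09% of all genes tested) and 1 was lower (1.72%, against 5.75%). In 3′RR-deficient cells 7 were higher (12.1%, against 6.38%) and none lower (against 4.27%). The 7 genes were Snora21, Snora23, Snora31, Snora73b, Snora78, Snord65 and Snord104, named after their values were seen, and 5 of them had a mean of at least 100 counts. In the edgeR fit of 3′RR-deficient against wt cells, all 5 small Cajal body RNAs tested also lay above 0. Their median log2 fold change was 0.86, and none was called. Of 76 other structured and micro RNAs 37 lay above 0 and 39 below, and of the 58 members 32 and 26. Higher values in 3′RR-deficient cells were thus also seen in other short RNAs.

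Snora78, an H/ACA gene in an intron of the noncoding host Snhg9, was lowest in wt cells in both states, with 18.4 CPM at rest in wt against 48.6 and 46.8 CPM in Eμ-deficient and 3′RR-deficient cells, and 28.8 CPM with LPS against 50.9 and 36.8 CPM. The log2 ratio of Eμ-deficient to wt cells was 1.403 (interval 1.21 to 1.598) at rest and 0.82 (0.65 to 0.99) with LPS. The log2 ratio of 3′RR-deficient to wt cells was 1.35 (1.17 to 1.53) and 0.35 (0.15 to 0.55). Snora73b was highest in both 3′RR-deficient libraries, with log2 ratios to wt of 0.85 (0.81 to 0.88) at rest and 1.05 (1.01 to 1.09) with LPS. Snora21, in an intron of Rpl23, had 7.55, 9.62 and 14.9 CPM at rest and 8.998, 9.19 and 15.4 CPM with LPS, again highest in 3′RR-deficient cells. Snord32a, in an intron of Rpl13a, had 4.46, 1.36 and 2.24 CPM at rest and 3.11, 0.750 and 3.49 CPM with LPS, lowest in Eμ-deficient cells. Its host Rpl13a was also lowest in Eμ-deficient cells, with log2 ratios to wt of -0.73 at rest and -0.29 with LPS.

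**Figure D5:**
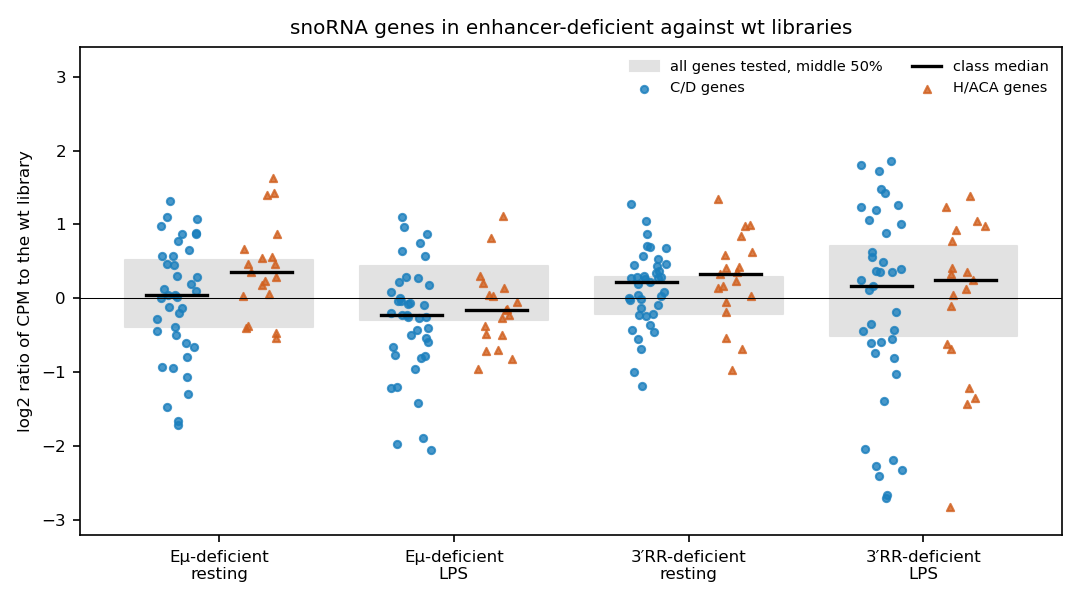
log2 ratio of CPM to the wt library of the same state (y axis) for each C/D gene (circles) and H/ACA gene (triangles) in Eμ-deficient and 3′RR-deficient cells at rest and with LPS (x axis), with class medians as black bars and the middle 50% of the 14600 genes tested in grey. Class medians run from -0.22 to 0.35, and the spread of the members is widest in the 3′RR-deficient LPS library, as is the grey range of all genes tested.

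The response to LPS had medians that varied with genotype. Over C/D genes the median log2 ratio of LPS to resting was 0.18 in wt, -0.16 in Eμ-deficient and -0.34 in 3′RR-deficient cells, and over H/ACA genes 0.76, 0.15 and 0.58, where all genes tested had -0.08, 0.00 and -0.09. The interquartile range of the C/D ratios in wt, from -0.55 to 0.97, spans all 3 of the C/D medians, and with 1 pair of libraries per genotype the differences were not tested.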

How the data were processed

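RNA-seq was done on 6 libraries of CD43-depleted splenic B-cells. The authors deposited raw counts of fragments per gene name. They made stranded total RNA libraries after removal of rRNA, mapped read pairs to mm10 with STAR 2.4.0a and Ensembl gene models, and counted with featureCounts (Subread 1.4.6-p1) on primary alignments, multi-mapping reads included, with strand option 1. The strand was checked: over 18 genes lying at 90% or more within exons of an abundant gene of the other strand, the median count density was 0.301% of that gene's. Longer fragments than the snoRNA can come from the unspliced host, and ribosomal RNA removal and RNA extraction may keep short RNAs unevenly.

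CPM used TMM library sizes without the spike-in RNAs. LPS and genotype were tested in 1 additive model (genotype and state, 2 residual degrees of freedom) over 14600 genes with edgeR 4.0.16 (quasi-likelihood, Benjamini-Hochberg adjusted p, threshold 0.05), tested first on simulated data. Ratios within a state used exact binomial intervals (95%, scipy 1.17.1), with counts under 3 set to 3, and no test. Alternatives used DESeq2 1.42.0, other library sizes, other count minimums, no genotype term, removal of the trend on GC content or length, and each genotype left out. No column was left unmapped.

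Positions, hosts and sequences are from GENCODE M21 (GRCm38), not the release used for counting; the host is the longest gene in the table that holds the snoRNA on its strand. Named genes were, per class, the 6 with the highest mean CPM, the called members with the largest changes (up to 5 in each direction) that moved alike in 3 genotypes, called genotype members (none), and processing and brain-restricted snoRNAs. Others are named for their hosts or for the interval rule in the genotype comparison. Members and lists were chosen with earlier results of these data known. Some genes and host positions are not reported here.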

Additional observations from a re-analysis of the deposited data

Results flagged for a closer look

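Among the genes named by rule, those whose values moved in opposite directions under the same contrast in different genotypes or states follow, and none of these differences was tested, since each genotype and state has 1 library. For Snora73b the log2 ratio of LPS to resting was higher in 3′RR-deficient cells than in wt cells by 0.20 and than in Eμ-deficient cells by 0.73. For Snora78 that ratio in 3′RR-deficient minus wt cells was -0.995. For Snord118 it was -0.80 in Eμ-deficient minus wt cells and -0.86 in 3′RR-deficient minus wt cells, and the ratio of 3′RR-deficient to wt cells with LPS minus that at rest was also -0.86. For Snord13 the ratio of 3′RR-deficient to wt cells with LPS minus that at rest was 0.75. For Snord15a the ratios to wt with LPS minus those at rest were 2.04 in Eμ-deficient and 2.02 in 3′RR-deficient cells, where both share the wt libraries with 45.4 CPM at rest and 6.27 CPM with LPS. For Snord83b the ratio of Eμ-deficient to wt cells with LPS minus that at rest was -1.25. Outside that rule, the ratio to wt also lay on opposite sides of 0 in the 2 states, with both counting intervals off 0, for Snora33, Snord11, Snord19 and Snord69 in Eμ-deficient cells (with LPS minus at rest from -3.04 to -1.93) and for Snora2b in 3′RR-deficient cells (-2.34).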

How the results depend on the processing

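Of 133 recomputed counts and medians 125 stayed within 1.5 times or within the spread, and 8 moved. The number of C/D genes called higher with LPS, 2, was 0 with total counts or spike-in counts as library sizes and 0 to 3 with a genotype left out, the 0 without the 3′RR-deficient libraries. Without a filter on low counts 1 member, Snord32a, was called in Eμ-deficient cells. The C/D median with LPS ran from -0.18 to 0.18 and the H/ACA median from 0.26 to 0.76 with a genotype left out, and the latter was 0.32 with spike-in counts as library sizes. With spike-in counts as library sizes, the medians of Eμ-deficient to wt at rest were -0.77 (C/D) and -0.46 (H/ACA), and that of 3′RR-deficient to wt C/D genes with LPS was 0.71, where all genes shifted by -0.81 and 0.55. The same scaling moved the median of all genes by -0.21 for LPS. Of 11 called members, 8 were called under all 12 settings, Snord100 and Snord83b in 9 (lost with total counts, spike-in counts and without 3′RR-deficient libraries) and Snord23 in 9 (lost with DESeq2 and without wt or Eμ-deficient libraries). Among uncalled genes, Snora21 changed sign with total counts (-0.014), and with a genotype left out so did Snora73b (-0.37 to 0.089), Snora78 (-0.11 to 0.36), Snord118 (-0.29 to 0.18) and Snord13 (-0.32 to 0.091). Causes were not tested beyond the settings' own construction. Without the genotype term, which pairs the resting and LPS libraries of a genotype, 11 members were also called. Depth limits the 43 members with a mean under 100 counts.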
